A study of Mustela putorius furo with 10 samples.

Results

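Platelet genes were followed in peripheral blood mononuclear cells (PBMC) of ferrets kept in the cold. The list held 10 symbols, namely PF4, PPBP, ITGA2B, ITGB3, GP9, GP1BA, TREML1, SELP, TUBB1 and CLEC1B. They were matched through the RefSeq ferret gene name of each target sequence on the array, and a gene was kept if its Cy3 signal was well above the local background on at least 4 of the 10 arrays. Of the 10 listed genes, 5 were matched, and all 5 passed that filter (ITGA2B, GP9, GP1BA, TREML1 and TUBB1), out of 26303 genes measured in all. Of these 26303, 9276 carried a gene symbol, and the rest were unnamed target sequences that each counted as 1 gene, also in every share of all genes given below. PF4, PPBP, SELP, CLEC1B and ITGB3 were not matched and are not analysed here. TREML1 and TUBB1 were chosen with their results in these samples known, so that their changes are given as a description, without a test.

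Platelets are small blood cells without a nucleus that are shed by megakaryocytes of the bone marrow, and they carry RNA made in those cells. They bind damaged vessel walls through the glycoprotein Ib-IX-V complex, which holds von Willebrand factor, and bind each other through the integrin αIIbβ3, which holds fibrinogen. They also carry granules filled with chemokines and clotting factors, and a ring of microtubules, the marginal band, that keeps the resting cell disc-shaped. Platelets are not mononuclear cells, but they can remain in the layer of cells collected from a Ficoll gradient.

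The animals were male ferrets aged 3 months. The control group was held at 22 °C and the cold group at 4 °C for 1 week, and the cold-exposed ferrets were housed singly. The labels give 7 animals per group, of which 6 control and 4 cold-exposed ferrets were put on arrays, with 1 array per ferret. PBMC were prepared from heparinised heart blood on Ficoll, their RNA was labelled with Cy3, and each array also received the same Cy5-labelled reference pool, made from PBMC and other tissues.

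The main measurement was the log2 ratio of Cy3 to Cy5, normalised within each array, and the Cy3 intensity alone, on the log2 scale after quantile normalisation between arrays, was the second. Spots well above background made up 50.4 to 63.5% of all spots in Cy3 and 27.0 to 54.9% in Cy5 on control arrays, against 58.0 to 61.1% and 40.5 to 64.0% on cold arrays. The median Cy5 signal of a spot, before normalisation, was 44 to 80 on the control arrays, and 152, 48, 98 and 92 on cold replicates 1 to 4, whereas the median Cy3 signal was 210 to 281 and 205 to 245.5. All 10 arrays lay on separate slides. In limma, no gene of 26303 passed an adjusted p of 0.05 for the log2 ratio. The lowest adjusted p was 0.0576, and 6501 genes had an unadjusted p under 0.05. The methods' t-test also gave 0 genes after adjustment, with 5751 at an unadjusted p under 0.05. In Cy3 alone, 741 genes (2.82%) passed limma's adjusted threshold. Counts below therefore use an unadjusted p under 0.01, which 8.64% of all genes passed for the log2 ratio, 5.21% with a higher and 3.43% with a lower mean in the cold.

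The mean log2 ratio was higher in cold-exposed than in control PBMC for TREML1, GP9, TUBB1 and ITGA2B, by 0.82 to 1.27 on the log2 scale, while GP1BA differed by 0.04. The median change of the 5 genes was 0.87, beside -0.01 over all genes tested. For none of the 5 genes did the groups separate completely, a pattern that 3.07% of all genes showed with higher values in the cold. Of the 3 genes given with a test (GP9, ITGA2B and GP1BA), GP9 had an unadjusted p under 0.01 in limma, beside the 5.21% of all genes called as higher in the cold. The list was made with results from this contrast known, so nothing is read from that count. In Cy3 alone all 5 genes again had a higher mean in the cold (42.9% of all genes), with a median change of 0.97 beside -0.04, and no gene's groups separated completely (3.57% of all genes did, with higher values in the cold). Of the 3 tested genes none had an unadjusted p under 0.01 in limma in that channel, which 9.84% of all genes had, 5.48% with a higher mean in the cold, and GP9 had one under 0.05. In bulk RNA such as this, more platelets among the cells and more platelet RNA per cell cannot be told apart.

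**Figure D1:**
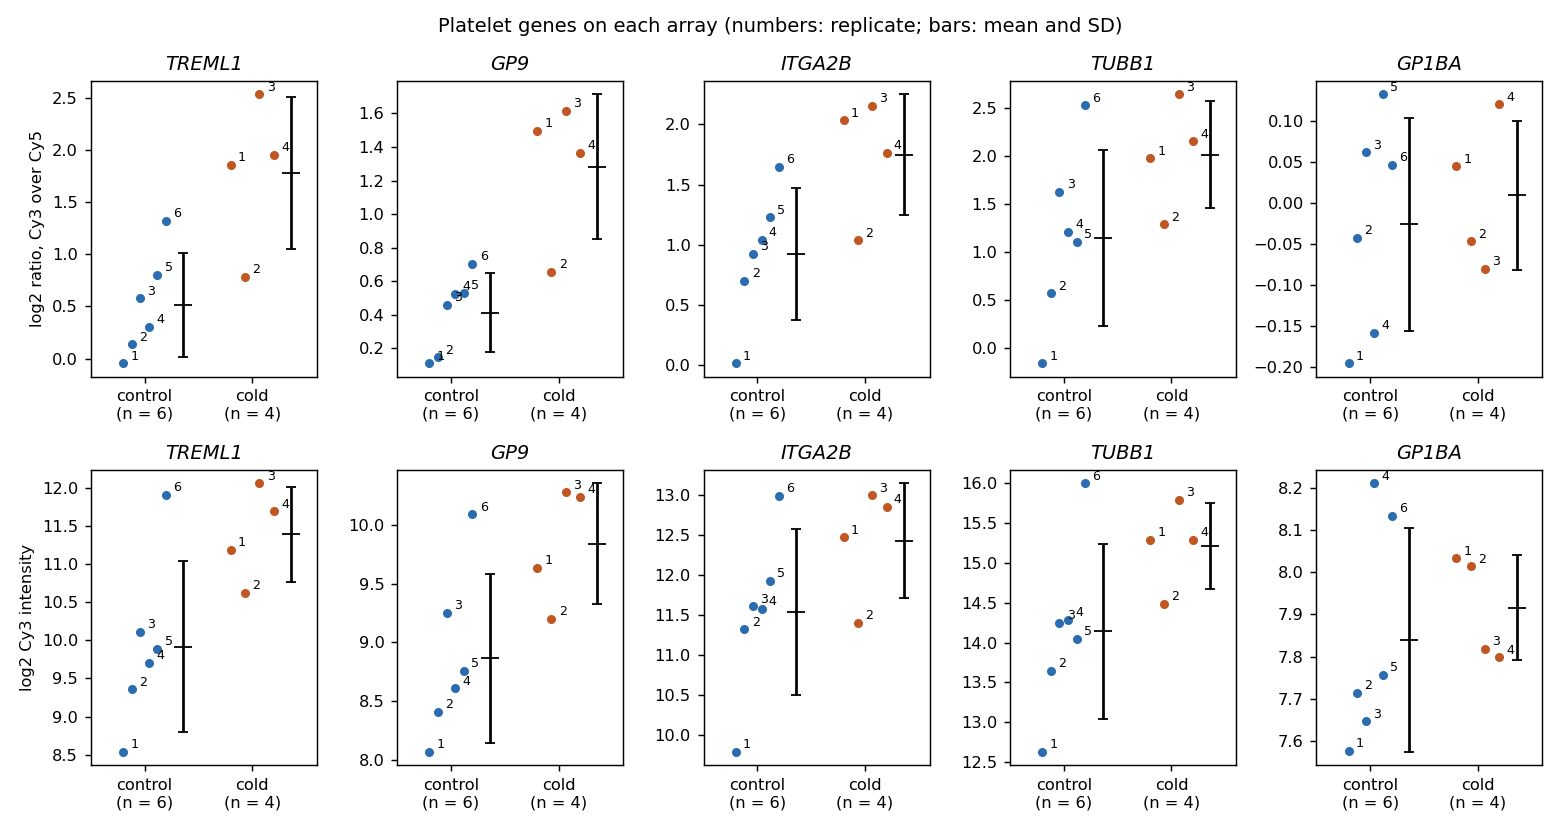
Log2 ratio of Cy3 to Cy5 (top row) and log2 Cy3 intensity (bottom row) of the 5 measured platelet genes, with 1 numbered point per array and the mean and SD of each group in black (6 control, 4 cold). In the top row, TREML1, GP9 and ITGA2B have 3 cold arrays above every control array, cold replicate 2 lies lowest of the cold arrays in those panels and for TUBB1, and GP1BA shows no such shift.

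TREML1 encodes TLT-1, a receptor of the TREM family that is stored in the α-granules of platelets and appears on their surface after activation. Its log2 ratio on the 6 control arrays was -0.04, 0.14, 0.58, 0.30, 0.80 and 1.32, in the order of the replicate numbers 1 to 6. On the 4 cold arrays it was 1.86, 0.78, 2.53 and 1.95. Cold replicates 1, 3 and 4 lay above every control array, while cold replicate 2 lay below control replicates 5 and 6. The cold mean was 1.78 ± 0.73 (SD, n = 4) and the control mean 0.52 ± 0.50 (SD, n = 6), a difference of 1.27 (SE 0.33), or 2.40-fold. All 8 probes of the gene had a higher mean in the cold, by 1.09 to 1.41. In Cy3 alone the difference was 1.47 (SE 0.52), and here control replicate 6, at 11.90, lay among the cold arrays, which ran from 10.62 to 12.06, while the other controls lay between 8.54 and 10.11.

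The array carries a pair of TREML1 target sequences with 4 probes each, and they did not give the same picture of control replicate 6. The target sequence XM_004739965.1 had log2 ratios of -0.39, 0.04, 0.70, -0.04, 0.71 and 2.32 on the control arrays and of 1.59, 0.77, 2.40 and 2.10 on the cold arrays. The difference was 1.16 (SE 0.49), with control replicate 6 second only to cold replicate 3. The target sequence XM_004739967.1 gave 0.30, 0.23, 0.46, 0.65, 0.89 and 0.31 on the control arrays and 2.12, 0.80, 2.66 and 1.81 on the cold arrays. Here the difference was 1.37 (SE 0.29) and control replicate 6 lay within the other controls. In Cy3 alone that array was the brightest of all 10 for the first sequence, at 14.44, and the brightest control for the other, at 9.37 against 7.39 to 8.73 in the other controls and 9.30 to 10.76 in the cold. In the reference channel every array had at least 83.3% of its spots for the first sequence well above background, whereas for the other sequence 91.7% and 83.3% were on cold replicates 1 and 3, 8.33% on control replicate 5 and none on the remaining arrays. The part of the dim reference signal in these ratios was not tested.

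**Figure D2:**
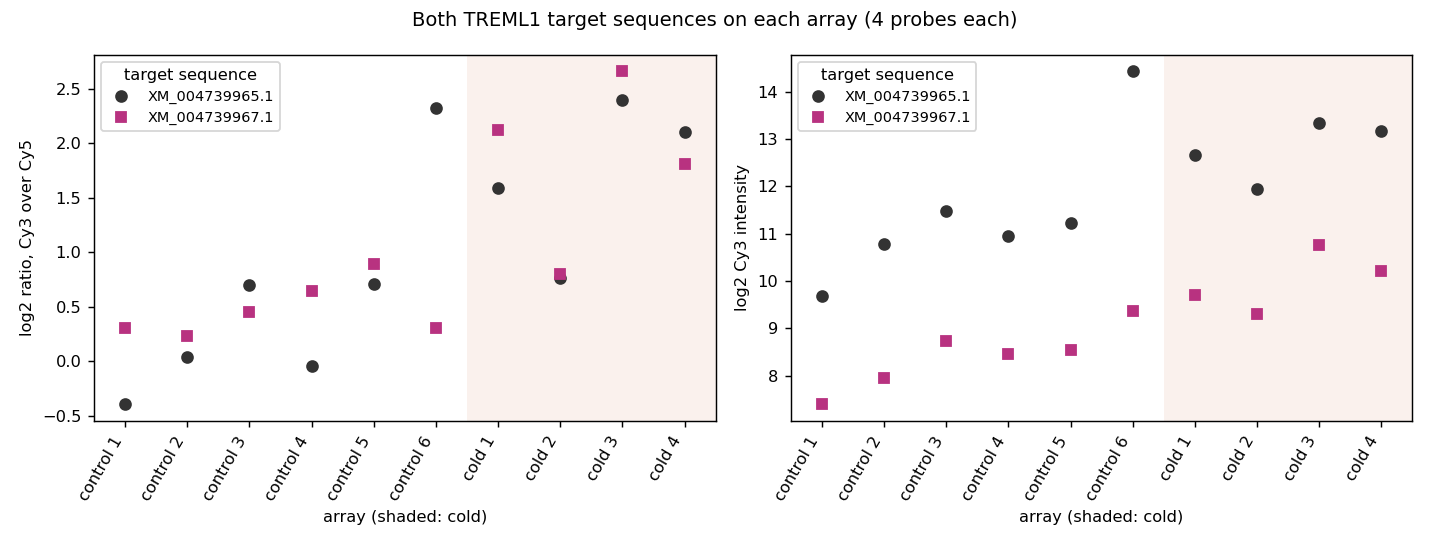
Log2 ratio (left) and log2 Cy3 intensity (right) of both TREML1 target sequences on each of the 10 arrays, each point being the mean of 4 probes, with cold arrays shaded. The sequences differ most in the log2 ratio of control replicate 6, at 2.32 and 0.31.

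GP9 encodes glycoprotein IX, a subunit of the von Willebrand factor receptor. The control arrays gave log2 ratios of 0.11, 0.15, 0.46, 0.52, 0.53 and 0.70, and the cold arrays 1.50, 0.66, 1.61 and 1.36. Only cold replicate 2 fell within the control range, just under control replicate 6. The mean was 1.28 ± 0.43 (SD, n = 4) in the cold and 0.41 ± 0.23 (SD, n = 6) in controls, a difference of 0.87 (SE 0.19, 95% interval 0.46 to 1.28) or 1.83-fold. In limma this difference had an unadjusted p of 6.7e-04 and an adjusted p of 0.0705, and a 2-sided exact permutation test over the arrays gave p = 0.0095, where the smallest p for 6 against 4 arrays is 0.00476. All 4 probes were higher in the cold, by 0.68 to 1.12. In Cy3 alone the difference was 0.97 (SE 0.36), with an unadjusted p of 0.0190 and an adjusted p of 0.131 in limma, and control replicate 6, at 10.09, lay between cold replicates 1 and 4, at 9.63 and 10.24. The share of GP9 spots well above background in Cy5 ran from 0 to 50% on control and from 25% to 58.3% on cold arrays.

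GP1BA encodes the subunit of the same receptor that binds von Willebrand factor directly, and it did not follow GP9. Its log2 ratio was -0.20, -0.04, 0.06, -0.16, 0.13 and 0.05 on the control arrays and 0.04, -0.05, -0.08 and 0.12 on the cold arrays. Every cold array lay within the control range. The difference of 0.04 had an SE of 0.09 and a 95% interval of -0.16 to 0.23, with an unadjusted p of 0.691 in limma and p = 0.657 in the exact permutation test. In Cy3 alone it was 0.08 (SE 0.14, unadjusted p 0.587 in limma). Its Cy3 intensity was 7.58 to 8.21 on the control and 7.80 to 8.03 on the cold arrays, with the lowest group means of the 5 genes. With the deposited values the difference was 0.32 (SE 0.22, unadjusted p 0.166 in limma). The GP1BA probes passed the background flag in Cy3 on 9 or 10 arrays, whereas the probes of the other 4 genes passed on all 10. Of the 4 probes, 2 were higher and the rest lower in the cold (-0.05 to 0.17). In the reference channel no GP1BA spot was well above background on control replicates 1, 2, 3 and 6, and all were on cold replicates 1 and 3.

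ITGA2B encodes the αIIb chain of the fibrinogen receptor, which pairs with the β3 chain encoded by ITGB3. The log2 ratio on the control arrays was 0.01, 0.70, 0.92, 1.04, 1.23 and 1.65, and on the cold arrays 2.03, 1.04, 2.16 and 1.76. Cold replicates 1, 3 and 4 exceeded every control array, and cold replicate 2 lay in the middle of the controls. The difference between the means was 0.82 (SE 0.30, 95% interval 0.17 to 1.48), or 1.77-fold, with an unadjusted p of 0.0184 and an adjusted p of 0.136 in limma and p = 0.0571 in the exact permutation test. All 4 probes were higher in the cold, by 0.59 to 1.04. In Cy3 alone the difference was 0.90 (SE 0.51, unadjusted p 0.104 in limma), and the control arrays spanned 9.78 to 12.99, a 9.24-fold range from control replicate 1 to control replicate 6, against 11.40 to 12.996 in the cold.

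TUBB1 encodes the β1-tubulin of the megakaryocyte lineage, the main β-tubulin of the marginal band. Its log2 ratio on the control arrays was -0.16, 0.57, 1.63, 1.22, 1.11 and 2.53, and on the cold arrays 1.98, 1.29, 2.65 and 2.16. The spread among control arrays was the widest of the 5 genes, and control replicate 6 lay above 3 of the 4 cold arrays. The cold mean exceeded the control mean by 0.87 (SE 0.44). All 8 probes, on a pair of target sequences that changed by 0.87 and 0.86, were higher in the cold. In Cy3 alone the difference was 1.07 (SE 0.51); control replicate 6 was the brightest of the 10 arrays at 16.00, the other control arrays lay between 12.63 and 14.29, and the cold arrays ran from 14.49 to 15.79. In Cy5, all TUBB1 spots were well above background on every array.

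The same arrays were low and the same arrays were high for 4 of the 5 genes. Control replicate 1 was the lowest control and control replicate 6 the highest for TREML1, GP9, ITGA2B and TUBB1, in the log2 ratio and in Cy3 alone, and cold replicate 2 was the lowest cold array. Averaged over the 5 genes and set against the control mean, the log2 ratio was -0.65, -0.29, 0.14, -0.01, 0.16 and 0.65 on the control arrays and 0.89, 0.15, 1.18 and 0.88 on the cold arrays. After each group's mean was subtracted, the correlations across the 10 arrays between pairs of TREML1, GP9, ITGA2B and TUBB1 lay between 0.79 and 0.93, and those of GP1BA with the others between 0.35 and 0.52. In Cy3 alone the median over the 10 pairs was 0.91 and the highest value was 0.98, for TREML1 with TUBB1. These correlations are descriptions over 10 arrays, whose values share the array, its labelling and its normalisation. The reference channel, which received the same pool on every array, also varied: the mean Cy5 intensity of the 5 genes relative to the control mean was -0.10 to 0.21 (log2) on control and 0.04 to 0.22 on cold arrays, highest on control replicate 6 within its group and on cold replicate 3. Cold replicates 1, 3 and 4, which lay above every control array for TREML1, GP9 and ITGA2B, were also the 3 arrays with the highest median Cy5 signal over all spots, while control replicate 6, with a low median Cy5 signal of 49, was the highest control for these genes. The part of the reference signal in the log2 ratios was not tested.

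The genes most like the platelet genes across arrays, by correlation with the mean of the 5 after subtracting group means, were GLRX5, ACER2, CAPN5, ZDHHC4, DOK2, MYLK, PRKAR1B, CD36, LHFPL2 and TP53BP1 (r from 0.99 to 0.96 over 10 arrays, the highest of 8336 named candidates). CD36, a scavenger receptor of platelets and monocytes, and MYLK, the myosin light chain kinase, are well known in platelets. GLRX5 acts in mitochondrial iron-sulphur cluster assembly, DOK2 is a signalling adaptor, PRKAR1B a regulatory subunit of protein kinase A, ACER2 a ceramidase, CAPN5 a calpain protease, and ZDHHC4 a palmitoyltransferase. The group differences of these 10 genes ran from 0.38 for DOK2 (SE 0.24) to 1.32 for CD36 (SE 0.47), all toward higher means in the cold, and their correlations in Cy3 alone were 0.93 to 0.99. With median centring in place of loess, which moved the median of all genes to -0.43, the changes of GLRX5, DOK2 and TP53BP1 were -0.14, -0.28 and 0.09 relative to that median. With the deposited values GLRX5 and DOK2 changed by -0.049 and -0.13. For TREML1 taken alone the closest were ANGPT1 (a ligand of the receptor TEK), ZDHHC4, GUCY1A1 (a subunit of the nitric oxide receptor), DND1 and PRPH2, with r from 0.97 to 0.96. PRPH2, a tetraspanin known from photoreceptors, differed by 1.64 (SE 0.32) between the groups and had r = 0.99 with TREML1 in Cy3 alone. DND1 changed by -0.11 (SE 0.07) and its correlation in Cy3 alone was 0.03.

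**Figure D3:**
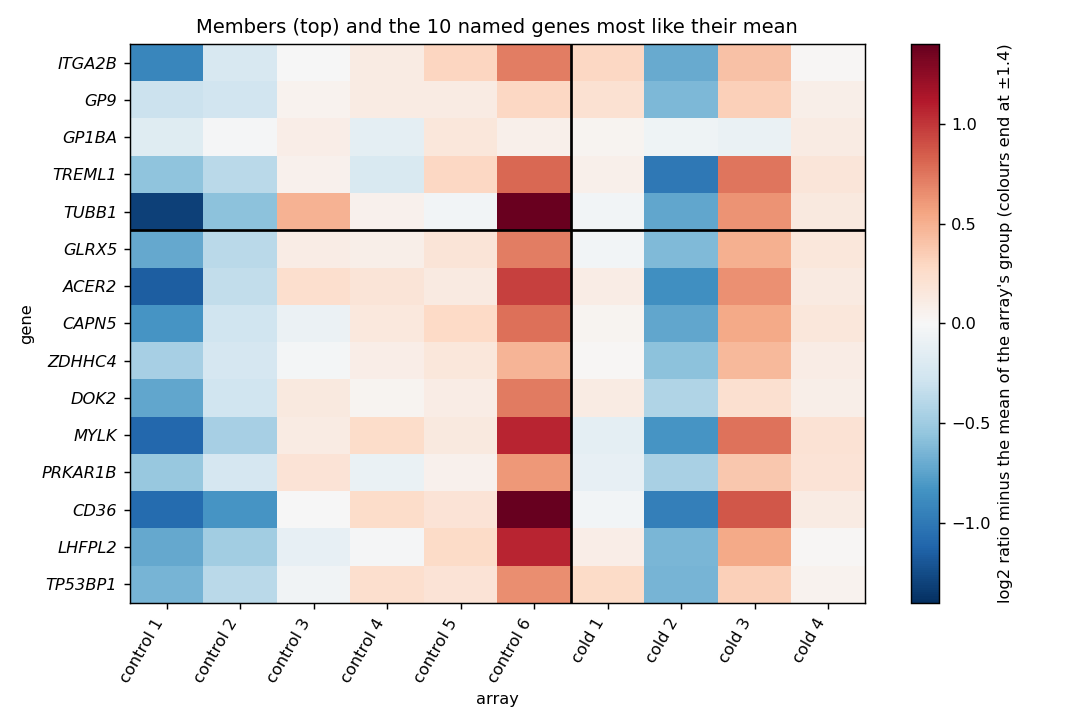
Log2 ratio of each gene on each array after subtracting the mean of that array's group, for the 5 platelet genes (top) and the 10 named genes most like their mean, with red above and blue below the group mean. Control replicate 1 and cold replicate 2 are blue, and control replicate 6 and cold replicate 3 red, in nearly every row, while GP1BA stays close to its group means.

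A wider list of 146 genes known from platelets and megakaryocytes, sorted by role, was read on the same scale. Many of these genes are also used by leukocytes. The list was chosen with earlier results of these data known, so its counts are given as a description. Of the 146 genes, 105 were on the array and 102 were measured. The mean was higher in the cold for 79 and lower for 23, whereas 48.0% of all genes were higher. The median change was 0.29. At an unadjusted p under 0.01 in limma, 20 were higher and 1 was lower in the cold (5.21% and 3.43% of all genes). Groups did not overlap for 6 genes with higher values in the cold (3.07% of all genes) and for 1 with lower values (2.15%). None passed an adjusted p of 0.05 for the log2 ratio in limma, where 51 had an unadjusted p under 0.05, nor did any in the methods' t-test, where 44 had. In Cy3 alone 12 were higher and 1 lower at an unadjusted p under 0.01 (4.36% of all genes were called lower), the median change was 0.21 beside -0.04 over all genes, and 6 passed the adjusted threshold, all with higher means in the cold (1.89% of all genes). With median centring in place of loess, 2 genes of the list were called, beside 1163 of all genes. The list's median was then -0.27, which was 0.15 above the median of all genes under that centring, -0.43. Without cold replicate 2 the list had 38 called genes, beside 3386 of all genes. Without cold replicate 3 it had 10, beside 1275, and without cold replicate 4 it had 11, beside 2058.

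Among other adhesion and collagen receptors, 8 of 9 measured genes had a higher mean in the cold and 2 were called at an unadjusted p under 0.01. CD9, a tetraspanin of the platelet surface, ran from -0.26 to 0.15 in controls and from 0.17 to 1.07 in the cold, without overlap (difference 0.79, SE 0.16). GP1BB, the third subunit of the von Willebrand factor receptor, ran from -0.13 to 1.48 in controls and from 1.21 to 1.84 in the cold (difference 1.02, SE 0.28). GP6, the collagen receptor, differed by 0.90 (SE 0.31) and did not reach that threshold, with an unadjusted p of 0.0140 in limma. Thus the subunits of the von Willebrand factor receptor on the array differed among themselves, with changes of 1.02 for GP1BB, 0.87 for GP9 and 0.04 for GP1BA, and the difference between these changes was not tested.

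Receptors for soluble agonists and inhibitors numbered 12, of which 8 were higher in the cold and 3 were called. Among them the thrombin receptor F2RL3 differed by 0.71 (SE 0.19) and the ATP-gated channel P2RX1 by 0.38 (SE 0.10). Control and cold arrays overlapped for both. The median change of the 12 was 0.26.

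Of 9 measured genes for α-granule cargo, 6 were higher in the cold and 3 were called. The 3 genes with lower means, chosen for mention after their values were seen, were PDGFB (-0.50, SE 0.16), SPARC (-0.61, SE 0.21) and CCL5 (-0.05, SE 0.42). PDGFB and SPARC had an unadjusted p of 0.0111 and 0.0133 in limma, and changed by -0.14 and -0.30 in Cy3 alone. F13A1, the catalytic chain of coagulation factor XIII, which monocytes also make, had log2 ratios of 0.35 to 1.14 in controls and 1.43 to 2.47 in the cold, without overlap. Its difference of 1.23 (SE 0.20) had an adjusted p of 0.0576 in limma, and in Cy3 alone it was 1.37 (SE 0.21), with an adjusted p of 0.0342. VWF, encoding von Willebrand factor, differed by 0.60 (SE 0.16) and FN1, encoding fibronectin, by 1.01 (SE 0.29), with FN1 also past the adjusted threshold in Cy3 alone (adjusted p 0.0453 in limma). Granule biogenesis and secretion was represented by 18 genes with a median change of 0.18, 15 of them higher in the cold. SYTL4, a granule docking protein (0.67, SE 0.16), and CD63, a tetraspanin of dense granules and lysosomes (0.49, SE 0.15), were called, though CD63 changed by -0.10 relative to all genes under median centring, and HPS1, a subunit of a complex needed to form dense granules, was not (0.27, SE 0.09, unadjusted p 0.0125 in limma).

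Eicosanoid synthesis had the highest median change of the roles, at 0.80 over 4 genes, of which 3 had higher means in the cold. PTGS1, the cyclooxygenase of platelets, ran from 0.31 to 0.67 in controls and from 0.83 to 2.27 in the cold (difference 1.11, SE 0.22). TBXAS1, which makes thromboxane from its product and is shared with monocytes, ran from 0.77 to 1.23 and from 1.64 to 3.04 (1.22, SE 0.22), and the phospholipase PLA2G4A from 0.11 to 0.22 and from 0.26 to 1.02 (0.48, SE 0.14). In all 3 genes the cold arrays lay above every control array. MGLL, a monoacylglycerol lipase and the remaining gene of this role, changed by -0.37 (SE 0.12), with an unadjusted p of 0.0117 in limma, and was chosen for mention after its value was seen. In Cy3 alone TBXAS1 and PLA2G4A passed the adjusted threshold in limma (adjusted p 0.0451 and 0.0345) and PTGS1 did not (0.118).

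**Figure D4:**
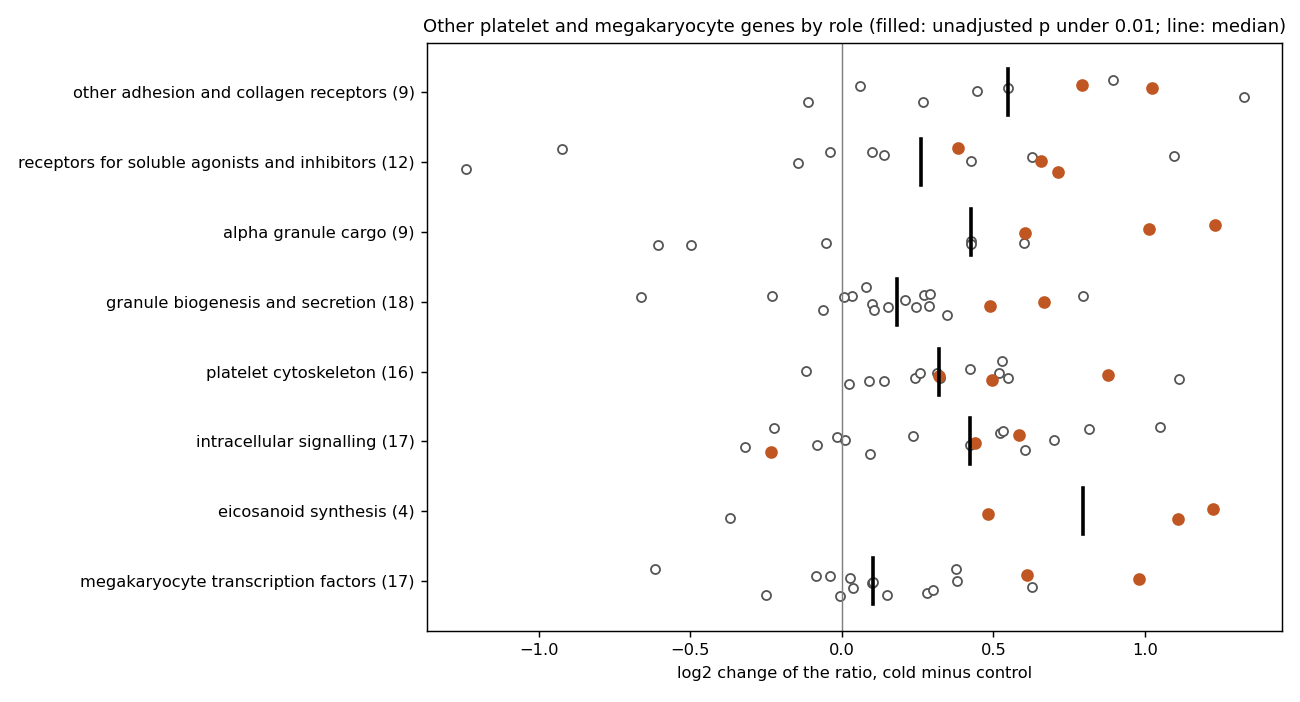
Log2 change of the ratio (cold minus control, horizontal axis) of the 102 measured genes of the wider list, 1 circle per gene, grouped by role with the number of genes in brackets. Filled circles had an unadjusted p under 0.01, 20 to the right of 0 and 1 to the left, and the vertical lines mark the median of each role, from 0.10 for transcription factors to 0.80 for eicosanoid synthesis.

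The platelet cytoskeleton had 15 of 16 genes higher in the cold, with a median change of 0.32. The 3 called genes were the formin DIAPH1 (0.32, SE 0.08, without overlap), the integrin activator FERMT3 (0.50, SE 0.14) and the actin crosslinker ACTN1 (0.88, SE 0.26). Under median centring DIAPH1 changed by -0.18 and FERMT3 by 0.21 relative to all genes, and with the deposited values DIAPH1 changed by -0.14. Among 17 signalling genes 12 were higher, with a median of 0.42. RGS10, which ends G protein signals (0.58, SE 0.16), and the phospholipase PLCB2 (0.44, SE 0.13) were higher, and the phosphatase PTPN11 was lower without overlap (-0.23, SE 0.07), though by -0.05 (SE 0.09) in Cy3 alone. Of 17 transcription factors of megakaryocytes 12 were higher, with a median of 0.10. GFI1B (0.98, SE 0.24) and GATA1 (0.61, SE 0.19), factors of megakaryocytes and red cell precursors alike, were called.

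The calls of single genes depended on the processing. Under the 22 alternatives the call at an unadjusted p under 0.01 was kept in 21 by TBXAS1 and in 20 by F13A1, PTGS1, SYTL4 and CD9, in 18 by GFI1B and F2RL3, in 17 by VWF and DIAPH1, and in 15 by GP1BB, FN1 and RGS10. PLA2G4A kept it in 12, FERMT3 in 11, ACTN1 in 10, CD63 in 9, PLCB2 in 8, and GATA1 and PTPN11 in 7, while P2RX1 kept it in 14 of 21. Sizes moved as well over the same alternatives. Among adhesion receptors CD9 changed by 0.65 to 1.04, GP1BB by 0.54 to 1.31 and GP6 by 0.12 to 1.18. The agonist receptors F2RL3 and P2RX1 changed by 0.56 to 1.68 and by 0.30 to 1.72, both most with processed signals. Among granule genes F13A1 changed by 0.30 to 1.41, VWF by 0.49 to 1.12, FN1 by 0.75 to 1.91, SYTL4 by 0.54 to 1.35 and HPS1 by 0.21 to 0.74, and CD63 ran from -0.52 to 0.60. Of the eicosanoid genes PTGS1 changed by 0.75 to 1.39, TBXAS1 by 0.41 to 1.44 and PLA2G4A by 0.36 to 0.94. For the cytoskeleton the ranges were -0.61 to 0.35 for DIAPH1, -0.22 to 0.62 for FERMT3 (0.12 in Cy3 alone and 0.18 with processed signals) and 0.16 to 1.06 for ACTN1. For signalling and transcription they were 0.23 to 0.75 for RGS10, 0.13 to 0.58 for PLCB2 (0.19 in Cy3 alone), -0.80 to -0.05 for PTPN11, 0.47 to 1.27 for GFI1B and 0.48 to 0.87 for GATA1. Median centring gave the lowest values of GP1BB, GP6, F13A1, FN1, PTGS1, TBXAS1, ACTN1 and RGS10. Relative to the median of all genes, -0.43 there, they were 0.96, 0.55, 0.72, 1.18, 1.17, 0.83, 0.59 and 0.65 in that order. That centring also gave the lowest values of CD63, DIAPH1, FERMT3 and PTPN11, which were -0.10, -0.18, 0.21 and -0.38 relative to that median.

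The relatives of 3 of the genes by symbol, chosen after the values had been seen, changed less in the log2 ratio. The other 8 measured tubulins differed by -0.26 to 0.62, with TUBB6 the highest, and none of the 8 had an unadjusted p under 0.01 in limma, while 3 had one under 0.05. In Cy3 alone TUBB6 differed by 1.09 (SE 0.17, adjusted p 0.0342 in limma), slightly more than TUBB1. The other 12 integrin chains differed by -0.31 to 0.45, with ITGB1, a β chain found on most cells, the highest. TREM1 and TREM2, receptors of myeloid cells, differed by 0.30 and 0.26. In Cy3 alone ITGA2B and TREML1 again changed most among their relatives, and of those relatives ITGB5 (0.75, SE 0.22) and TREM2 (0.44, SE 0.12) had an unadjusted p under 0.01 in limma. The difference between relatives was not tested.

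Markers of other blood cells moved with the groups as well. The mean log2 ratio of 8 measured monocyte markers, set against the control mean, ran from -0.52 to 0.23 in controls and from 0.30 to 0.97 in the cold, with 7 of the 8 higher. That of 5 neutrophil markers ran from -0.23 to 0.34 and from 0.38 to 0.76, with all 5 higher, and that of MPO and CEBPE, which mark granulocyte precursors, from -0.40 to 0.18 and from 0.62 to 1.75. The 4 erythroid markers were lower, from -0.40 to 0.55 in controls and from -1.42 to -0.63 in the cold, and 7 of 8 T cell markers had lower means, from -0.19 to 0.12 and from -0.95 to -0.12. Means of 6 of 7 B cell markers and of both dendritic cell markers were lower, with median changes of -0.06 and -0.43, and 3 of 5 markers of NK and cytotoxic cells were higher (median 0.02). In Cy3 alone all 7 B cell, all 8 T cell and 4 of 5 NK and cytotoxic markers were lower, with medians of -0.56, -0.70 and -0.23, and all 8 monocyte and all 5 neutrophil markers were higher, with medians of 0.67 and 0.44. In that channel the erythroid median was -1.73, the dendritic cell median -0.25 and that of granulocyte precursors 1.46. Within groups, the mean of the platelet genes correlated over the 10 arrays with r = 0.24 for monocyte, 0.45 for neutrophil, 0.48 for granulocyte precursor, 0.13 for erythroid, -0.40 for T cell, -0.36 for B cell, -0.12 for NK and cytotoxic and -0.67 for dendritic cell markers. In Cy3 alone these values were 0.14, -0.31, 0.11, 0.17, -0.36, -0.68, 0.01 and -0.28 in the same order. Of 5 measured endothelial markers 2 were higher in the log2 ratio (median -0.11) and 4 in Cy3 alone (median 0.51, with TEK at 1.01, KDR at 0.85 and CDH5 at 0.51), and their correlation with the platelet genes within groups was 0.28 for the log2 ratio and 0.97 in Cy3 alone. PAX5 (B cells), KLF1 (erythroid cells), MS4A3 (granulocyte precursors), and TIE1 and ROBO4 (endothelium) were on the array but did not pass the background filter. The part of these cell types in the platelet gene differences was not tested.

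Within each position on the slide the direction was kept for the 4 genes other than GP1BA. At position 1 (4 control and 2 cold arrays) the difference was 0.89 for TREML1, 0.70 for GP9, 0.69 for ITGA2B and 0.59 for TUBB1. At position 2 (2 arrays per group) it was 1.55, 0.99, 0.88 and 1.03 in the same order. GP1BA differed by 0.09 and -0.08. Under the processing alternatives TREML1 was higher in the cold by 1.02 to 1.60, GP9 by 0.76 to 1.14 and ITGA2B by 0.19 to 1.08, whereas TUBB1 ran from -0.13 to 1.20. The single lower value of TUBB1 came from centring each array's ratios on their median in place of loess, which shifted the median of all genes to -0.43. Relative to all genes under that centring, TUBB1 was higher by 0.30 and ITGA2B by 0.61. With the deposited values the change was 0.40 for TUBB1, 0.60 for ITGA2B, 1.45 for TREML1 and 1.14 for GP9. Leaving out cold replicate 2 raised the TUBB1 change to 1.11 and leaving out control replicate 6 to 1.14.

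**Figure D5:**
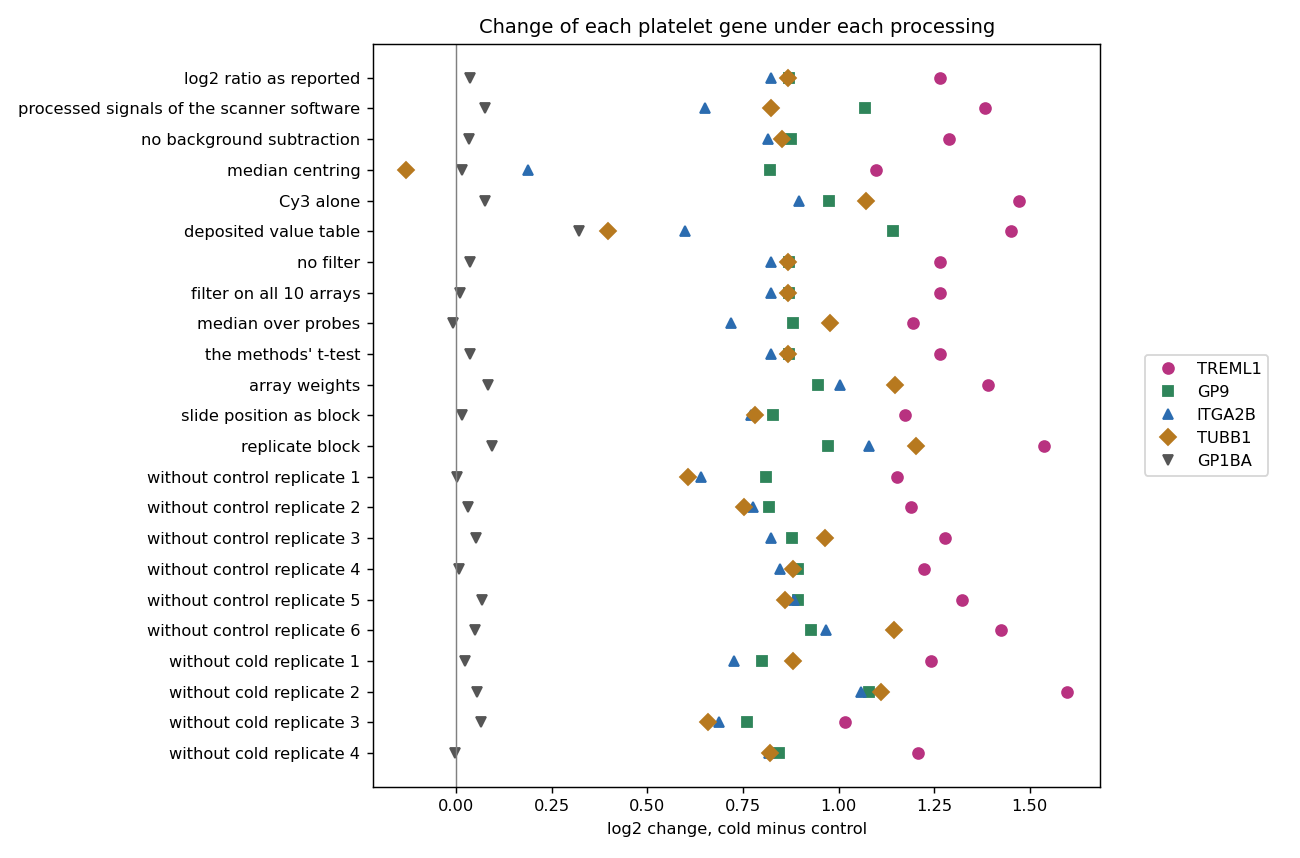
Log2 change (cold minus control) of each of the 5 platelet genes as reported (top line) and under each of 22 processing alternatives, including leaving out each array. TREML1 and GP9 stay at 0.76 or above throughout, ITGA2B and TUBB1 move left under median centring, and GP1BA stays near 0 except with the deposited values (0.32).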

How the data were processed

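RNA of 10 PBMC samples (6 control, 4 cold) was measured on custom 2-colour Agilent arrays with 45328 target sequences. The authors deposited spot intensities of both channels, read with Agilent Feature Extraction 10.7.3.1, and, for each target sequence, processed log2 values whose centring per array and per sequence is unstated. In limma 3.58.1 under R 4.3.3, median intensities were background-corrected (normexp, offset 50), Cy3 over Cy5 was normalised within arrays (loess, span 0.3, 4 iterations), and spots of a probe, then probes of a gene, were averaged. Probes needed 0.5 or more of their spots well above background in Cy3 on at least 4 arrays, which kept 111051. Of 45328 sequences, 21104 were named through RefSeq as 12918 genes. Groups were compared with lmFit and eBayes over all 26303 genes (2 with a missing value were left out), with Benjamini-Hochberg adjustment. Two-sided exact permutation tests used all 210 splits. Intervals are at 95%. The number of arrays limits the precision.

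The members and lists were chosen with earlier results of these data known. Named genes are the members, at most the 3 with the lowest unadjusted p per role, and the 10 (for TREML1, 5) most correlated genes. Processed signals, background, normalisation, Cy3 alone, the deposited table, filters, probe summary, the methods' t-test, array weights, slide position, replicate block and each array left out were tried as alternatives. Replicate numbers did not pair the arrays (correlations of same-numbered deviations from -0.30 to 0.54). Each array is 1 ferret. No genome was used and no coordinates or sequences are given. RT-qPCR, adipose tissue and liver are not analysed here. Some named genes are not reported here.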

Additional observations from a re-analysis of the deposited data

Results flagged for a closer look

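Of 100 sets of values checked for an array far from the rest of its group, 1 stood out, where chance gives about 1 in 20. The log2 ratio of CD9 on control replicate 6 was 0.15, against -0.26 to -0.11 on the other control arrays, and the gap took 0.646 of the range of the controls. Control replicate 6 was also the highest control for TREML1, GP9, ITGA2B and TUBB1.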

How the results depend on the processing

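How many of the 5 genes had an unadjusted p under 0.01 is given as a description, with nothing read from it, since the 5 include TREML1 and TUBB1, chosen with their results known. Over 22 alternatives, the 5 platelet genes turned direction in 3 of 110 values (TUBB1 -0.13 with median centring, GP1BA -0.0070 with the median over probes and, without single arrays, -0.0015 to 0.067, the lowest without cold replicate 4). Median centring also left 0 of the 5 genes called, with a median change of 0.19 (0.61 relative to all genes), left 1163 of all genes called (18.5% of them higher, against 60.3% of 2272 with loess) and 2 of the wider list, whose median turned to -0.27 (0.15 relative to all genes). As median centring moved the median of all genes to -0.43, FERMT3 (-0.22) and TP53BP1 (-0.33) were below 0 but 0.21 and 0.09 above that median, TUBB1 was 0.30 above it, and CD63 (-0.52), DIAPH1 (-0.61), GLRX5 (-0.57) and DOK2 (-0.71) were also below it, by -0.10, -0.18, -0.14 and -0.28. The deposited table called 1093 of all genes (46.2% higher) and 10 of the wider list, with a median of 0.13, and turned DIAPH1 (-0.14), GLRX5 (-0.049), DOK2 (-0.13) and DND1 (0.45). Processed signals called 1505 of all genes (42.5% higher). Cy3 alone called 741 of all genes and 6 of the wider list after adjustment in limma. At an unadjusted p under 0.01 it called 2587 of all genes, 13 of the wider list and 0 of the 5 genes, with 2 of the 5 under an unadjusted p of 0.05. At an unadjusted p under 0.01 the methods' t-test called 1726 of all genes, 12 of the wider list and 1 of the 5 genes. A filter on all 10 arrays called 115 genes after adjustment, and slide position as a block 5. With the replicate number as a block, 4 of the 5 genes, 32 of the wider list and 2459 of all genes were called. The numbers did not pair the arrays by the correlations given with the methods, and 1 of 4 cold and 2 of 4 control arrays correlated best with their own number. The cause of these shifts was not tested.

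Leaving out each array gave 0 to 1272 genes after adjustment (1272 without cold replicate 2, 633 without control replicate 5, 12 without cold replicate 1) and 1275 to 3386 at an unadjusted p under 0.01 (lowest without cold replicate 3, then 1425 without control replicate 1 and 1504 without control replicate 2). The wider list had 10 to 38 called (10 without cold replicate 3, 11 without cold replicate 4, 38 without cold replicate 2) and a median of 0.25 to 0.35. Without cold replicate 4, 2058 of all genes were called. Of the 5 genes 1 to 3 were called (1 without cold replicate 3), with a median of 0.64 to 1.08. Leaving out each array in Cy3 alone, which was added after the data were seen, gave 0 to 3 called (3 without control replicate 6, 1 without cold replicate 2), with a median of 0.77 to 1.24. Calls over all genes were not counted in those Cy3 fits, so nothing is read from their counts. Without GP1BA the median was 0.87. Other named genes kept direction and call in 592 of 834 values and turned in 10. Reference spots were dim for GP9, GP1BA and 1 TREML1 sequence, and their part in the ratios was not tested.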
